A study of Mus musculus with 46 samples.

Results

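H3K27ac, acetylation of lysine 27 on histone H3, was compared between microglia that were refilling the brain after depletion and microglia of the early postnatal brain, both sorted as Ki67-positive. The peak lists of the 4 libraries were merged into a union of 36400 regions, joining peaks that overlapped. Of these, 20616 regions were listed in all 4 libraries, 1795 (4.93%) in both repopulation libraries and neither PND8 library, and 1479 (4.06%) in both PND8 libraries and neither repopulation library. The remaining 12510 had another pattern. These 4 libraries belong to 12 H3K27ac libraries in a series of 46 samples.

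All 4 chromatin libraries came from male wild-type C57BL/6 mice. The repopulation group (2 libraries) was 90 days old and had received PLX5622, a drug that inhibits CSF1R, the receptor microglia need to survive, in the diet for 17 days, followed by 3 days of recovery. The PND8 group (2 libraries) was 8 days old and untreated. These are the ages in the sample characteristics; the list header of repopulation replicate 1 names a slightly younger age, and titles of the PND8 samples also carry the word adult. Cells were sorted on CD11b, CD45 and CD44 after isolation on ice with butyrate, an inhibitor of histone deacetylases, and flavopiridol, an inhibitor of transcription, in the buffer. They were fixed, permeabilised and stained for Ki67, a nuclear protein of cycling cells. RNA of matching groups (2 libraries each) came from male mice with a fluorescent Ki67 reporter, at 75 days after the same 17 days of drug and 3 days of recovery, and at 8 days. Age and depletion differ together between the groups, so they cannot be told apart within these libraries. RNA replicates are described in the labels as biologically independent. No such statement was found for the chromatin replicates, so their p-values measure only the spread between these samples, which may be technical.

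H3K27ac is deposited at active promoters and enhancers, where acetylation loosens chromatin and is read by transcriptional co-activators. In microglia, enhancers of this kind are set by lineage factors such as PU.1 and are shaped by signals from the tissue, among them TGF-beta, cytokines, interferons and lipids. Microglia divide rapidly after birth, rarely in the adult brain, and again when survivors refill a depleted niche.

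Sequence upstream of 6 genes is shown because their start sites carried differing regions and their RNA was called in the same direction. Cxcl10 and Ifit1 are interferon-stimulated genes and Il6 is a cytokine. Ch25h makes 25-hydroxycholesterol. Igf2bp3 is an RNA-binding protein of immature tissues, and Apoe carries lipids. Each run is the 250 bases before the start site on the gene's strand, from RefSeq on GRCm38.p6: chr5:92348890-92349139 (minus) for Cxcl10, chr19:34640639-34640888 (plus) for Ifit1, chr5:30012864-30013113 (plus) for Il6, chr19:34475149-34475398 (minus) for Ch25h, chr6:49214955-49215204 (minus) for Igf2bp3 and chr7:19699189-19699438 (minus) for Apoe. Capitals mark matches on either strand to 9 motifs: the interferon-stimulated response element ISRE (GAAANNGAA), a PU.1-IRF composite (GGAANNGAA), PU.1 (GAGGAAGT), AP-1 (TGANTCA), NF-kB (GGANNTTCC), an E-box (CACGTG), C/EBP (TTGCNNAA), EGR (GTGGGCG) and E2F (TTCCCGC). ISRE and PU.1-IRF can overlap.
Cxcl10: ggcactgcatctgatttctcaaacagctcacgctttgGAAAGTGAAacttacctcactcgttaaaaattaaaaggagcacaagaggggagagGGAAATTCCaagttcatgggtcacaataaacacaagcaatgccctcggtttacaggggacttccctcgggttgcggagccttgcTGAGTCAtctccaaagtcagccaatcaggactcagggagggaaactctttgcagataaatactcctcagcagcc
Ifit1: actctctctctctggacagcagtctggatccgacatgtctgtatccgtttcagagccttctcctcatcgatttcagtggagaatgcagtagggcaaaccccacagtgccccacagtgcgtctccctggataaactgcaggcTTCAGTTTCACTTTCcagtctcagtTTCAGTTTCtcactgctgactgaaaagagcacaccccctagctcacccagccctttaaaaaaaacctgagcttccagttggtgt
Il6: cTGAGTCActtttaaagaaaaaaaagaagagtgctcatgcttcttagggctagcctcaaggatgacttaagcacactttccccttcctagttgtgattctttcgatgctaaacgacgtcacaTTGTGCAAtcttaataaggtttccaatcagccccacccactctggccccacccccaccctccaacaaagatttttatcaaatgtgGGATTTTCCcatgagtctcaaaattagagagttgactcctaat
Ch25h: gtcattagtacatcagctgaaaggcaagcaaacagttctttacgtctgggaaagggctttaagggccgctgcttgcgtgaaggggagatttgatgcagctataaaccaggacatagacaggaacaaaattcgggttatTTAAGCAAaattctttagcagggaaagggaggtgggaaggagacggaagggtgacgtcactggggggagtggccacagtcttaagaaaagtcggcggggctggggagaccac
Igf2bp3: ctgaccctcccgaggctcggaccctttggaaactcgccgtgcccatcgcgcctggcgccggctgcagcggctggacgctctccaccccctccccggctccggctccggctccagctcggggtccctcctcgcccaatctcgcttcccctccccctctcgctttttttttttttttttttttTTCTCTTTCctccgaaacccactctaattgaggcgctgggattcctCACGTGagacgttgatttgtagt
Apoe: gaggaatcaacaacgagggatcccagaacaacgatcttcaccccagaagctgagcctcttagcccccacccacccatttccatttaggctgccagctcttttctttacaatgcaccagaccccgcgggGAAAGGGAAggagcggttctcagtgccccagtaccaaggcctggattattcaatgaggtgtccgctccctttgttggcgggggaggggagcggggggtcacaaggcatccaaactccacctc
Ifit1 held 3 ISRE matches, whose first bases lay 109, 103 and 84 bases before the start. Cxcl10 held an ISRE match at 213, an NF-kB match at 158 and an AP-1 match at 74 bases before it. Il6 held AP-1, C/EBP and NF-kB matches at 249, 128 and 43 bases. Ch25h held a C/EBP match at 112 bases. Apoe and Igf2bp3, both lower in repopulation, also held an ISRE match, at 122 and 69 bases, and Igf2bp3 an E-box at 23. A match describes letters and says nothing of binding.

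Library quality differed within groups. The lists rested on 16736100 to 21527100 tags, with 45.56% to 60.32% of tags in peaks and 26962 to 30321 peaks. Replicates correlated across shared regions at r = 0.954 in repopulation and 0.964 at PND8 on the log2 scale, and libraries of different groups at 0.800 to 0.841. Repopulation replicate 2 stood apart in its ratio over input, with 32.8% of its peaks at least 8 times over input. The shares were 68.5% in repopulation replicate 1 and 74.9% and 77.7% at PND8. Repopulation replicate 2 nonetheless had the highest share of tags in peaks, 60.32%. Library names in the list headers end in a number of unstated meaning, and repopulation replicate 1 and PND8 replicate 2 have the same one. Promoter regions of Csf1r, P2ry12, Tmem119, Sall1, Spi1, Mki67 and Top2a were listed in all 4 libraries, which matches the microglial and cycling labels.

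Among the regions listed everywhere, 2526 (12.3%) had more H3K27ac in repopulation and 1796 (8.71%) had less (limma on log2 signal centred on each library's median, Benjamini-Hochberg adjusted p below 0.05). Signal is the summed tag count of the peaks in a region per 10000000 tags. The higher regions had a median log2 difference of 1.27 and the lower regions of -1.12. In the pair that shares a header number, 2526 of the 2526 and 1796 of the 1796 regions had the same sign, with medians of 1.16 and -1.04; both libraries also entered the test. Centring set aside a shift of 0.17 log2 units. On the values as deposited 2492 regions were higher and 922 lower. Single libraries weighed heavily: without PND8 replicate 1 the calls fell to 696 higher and 171 lower, and without PND8 replicate 2 to 1407 and 431.

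**Figure D1:**
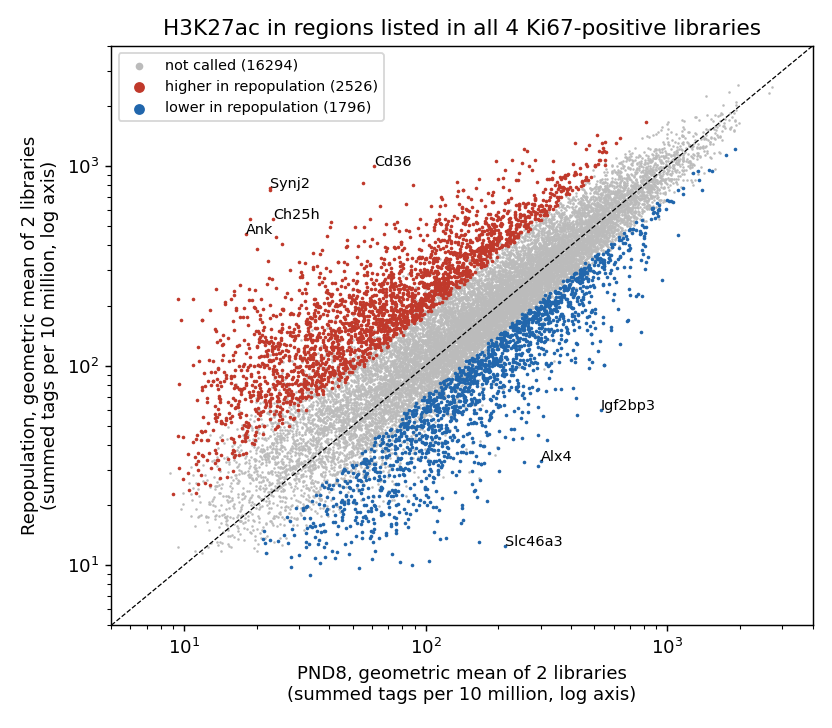
Each point is 1 of the 20616 regions listed in all 4 libraries, placed by its geometric mean signal at PND8 (x) and in repopulation (y), both in summed tags per 10000000 on log axes, and the dashed line marks equal signal as deposited. The 2526 higher regions (red) lie above the main cloud and the 1796 lower regions (blue) below it.

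Differing regions lay mostly away from gene starts. Of uncalled regions 48.5% overlapped a 1 kb window around a gene start, against 28.1% of the lower and 11.2% of the higher regions. Among regions listed in 1 group only, 4.29% of the repopulation set and 6.96% of the PND8 set did so. These 2 sets were also weaker, with median signals of 38.2 and 28.1 against 199 in uncalled regions. The lowest listed signal was 6.50 to 7.17 across libraries. A region that a list lacks has no value there, and no fold is given for it. When only peaks at least 8 times over input were kept, the balance turned, to 278 regions in repopulation only and 2442 in PND8 only. At that limit repopulation replicate 2 kept 8850 of its 27008 peaks, and each of the other lists 20189 to 23567. Leaving out repopulation replicate 1 or 2 gave 3398 or 3837 repopulation-only regions, and leaving out PND8 replicate 2 gave 3115. For PND8-only regions the counts were 3842 without repopulation replicate 1 and 3675 without PND8 replicate 1. Leaving out a library removes a condition, so counts of regions listed in 1 group only could not fall.

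The 10 largest rises, 1 per gene, had log2 differences of 3.86 to 4.93. At the start of Ch25h (region chr19:34471699-34475985) the signal was 442.2 and 662.9 in repopulation and 21.1 and 25.8 at PND8. The groups lay far apart, with a log2 difference of 4.36 (SE 0.19, limma adjusted p = 0.00308). A region 17209 bp from the start of Cd36, the scavenger receptor that takes up fatty acids and oxidised lipoprotein (chr5:17853105-17858390), had 880.7 and 1142 in repopulation and 63.7 and 59.2 at PND8. That difference was 3.86 (SE 0.22, limma adjusted p = 0.00308). The start of Synj2, a phosphoinositide phosphatase, had 755.9 and 798.5 against 24.0 and 21.3. An intronic region 50015 bp into Ank, the pyrophosphate and ATP exporter, had 378.2 and 549.5 against 12.3 and 26.3. A region 21085 bp from the start of Fkbp5, a glucocorticoid-responsive co-chaperone, had 472.6 and 620.1 against 11.3 and 31.4. The other largest rises lay near Gpr3, Smim3, Klhl25, 2010109A12Rik and Gxylt1. All 10 passed without any 1 library.

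RNA of these genes did not always move with the region. In CPM, counts scaled to library size by TMM, Cd36 had 233.3 and 312.2 in repopulation and 3.86 and 11.3 at PND8, and Synj2 had 60.4 and 64.0 against 2.42 and 2.77. Fkbp5 rose less, from 109.7 and 102.9 at PND8 to 179.9 and 175.9 (log2 fold change 0.74, edgeR adjusted p = 1.6e-05). Gxylt1 had 127.5 and 135.4 CPM in repopulation and 130.7 and 119.1 at PND8 (log2 fold change 0.07, edgeR adjusted p = 0.625), although its region rose by 3.96.

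The largest falls included a region in Igf2bp3. A region 3066 bp into the gene (chr6:49208039-49211888) had 67.5 and 53.4 in repopulation and 468.5 and 606.6 at PND8, a log2 difference of -3.32 (SE 0.25, limma adjusted p = 0.00333). The region over its start (chr6:49213271-49215626) was listed at PND8 only, with 321.9 and 264.3, and was listed in no adult or cuprizone library. Igf2bp3 RNA was 4.63 and 6.91 CPM in repopulation and 129.3 and 160.2 at PND8. Near Slc46a3, a lysosomal transporter, signal was 12 and 13 against 178.9 and 252.2, the largest fall of the 10 (-4.26), yet its RNA was 195.3 and 185.7 CPM against 182.5 and 179.5. An intronic region of Nod1, a sensor of bacterial peptidoglycan, fell (11.4 and 8.83 against 70.1 and 109.9) while its RNA rose from 29.2 and 28.6 to 47.5 and 46.4 CPM. Crispld2, Alx4 and Dcun1d4 also held their calls without any 1 library. Jph3, Plekhg5 and Tmem52 lost theirs without PND8 replicate 1 (adjusted p = 0.0805, 0.205 and 0.0903) or replicate 2 (0.0533, 0.131 and 0.0575), and Cx3cl1 without PND8 replicate 1 (0.0698).

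**Figure D2:**
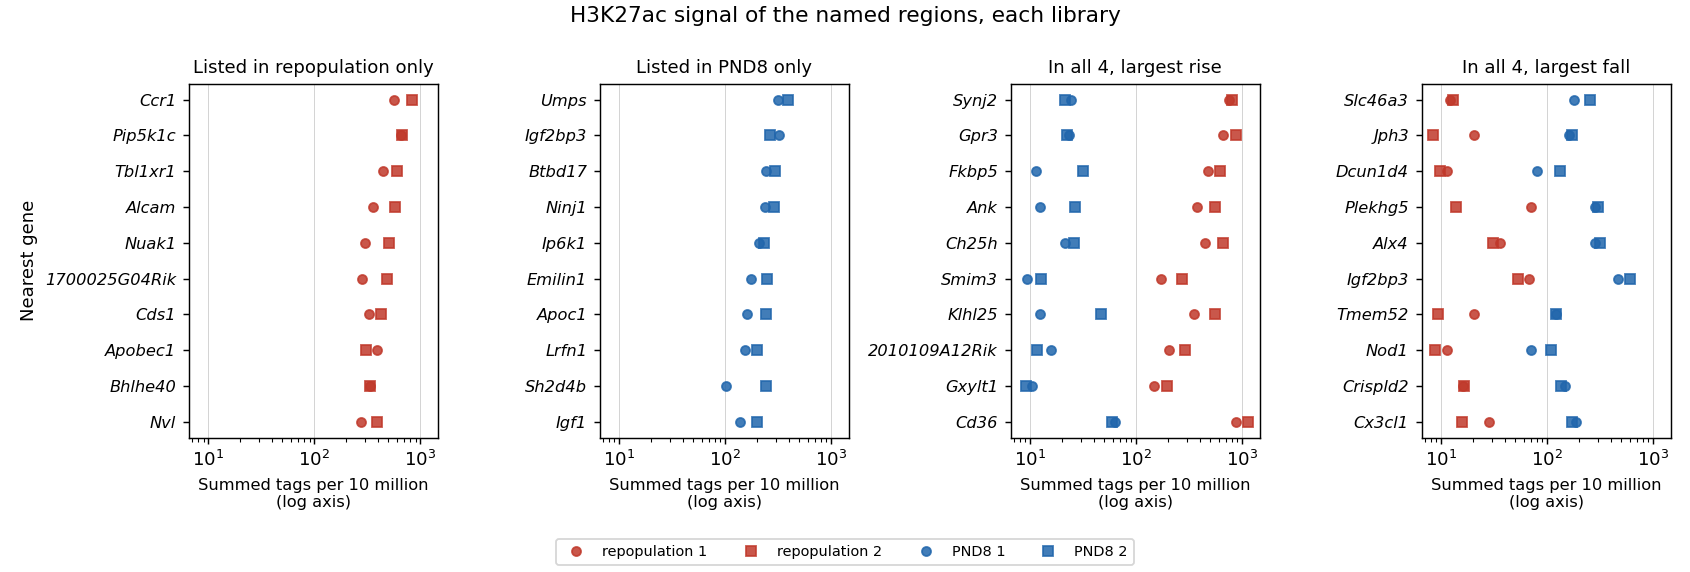
Signal in summed tags per 10000000 (x, log axis) of the 10 named regions of each kind (y, nearest gene), with 1 point per library, red for repopulation and blue for PND8. Where a group has no points its lists do not hold the region; in the panels of regions listed in all 4 libraries no repopulation point overlaps the PND8 points.

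The 10 strongest regions listed in repopulation alone included ones near Ccr1, a chemokine receptor (565.2 and 834.3), Pip5k1c, a lipid kinase (655.5 and 672.2), Tbl1xr1, a co-repressor subunit (444.5 and 597.9), and Alcam, an adhesion molecule (356.7 and 580.7). Alcam RNA was 17.1 and 24.5 CPM against 0.44 and 0.92 at PND8. At the start of Bhlhe40, a transcription factor of stimulated macrophages (chr6:108658207-108661896), the signal was 338.2 and 337.7, and all 4 regions of this gene were on the repopulation side. Its RNA was low throughout, 3.59 and 7.20 CPM against 0.77 and 1.62, and its call (edgeR adjusted p = 0.0118) was lost without repopulation replicate 2 (0.126) or PND8 replicate 1 (0.117). The 4 cuprizone libraries listed this region, with 259.3 to 719.3, and the adult libraries did not. Ccr1 RNA did not pass the test (87.3 and 87.7 CPM against 108.4 and 108.8, edgeR adjusted p = 0.0798).

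Regions listed at PND8 alone covered the starts of Igf1, the growth factor that supports myelination and neurons, and Emilin1, an extracellular matrix protein, and lay 64 bp from Apoc1, a lipoprotein component. At Igf1 (chr10:87857398-87860664) the signal was 137.2 and 197.0 at PND8. Its RNA was 1.27 and 1.15 CPM in repopulation and 120.4 and 135.8 at PND8, a 106-fold lower level in repopulation. The Igf1 region was not listed in the adult libraries but was listed in both PND8 Ki67-negative libraries (259.7 and 245.1) and all 4 cuprizone libraries (205.4 to 467.4). Apoc1 RNA gave 2 and 0 counts in repopulation and 107 and 100 at PND8. Sh2d4b went the other way: its nearest region, 34716 bp off, was listed at PND8 (100.9 and 244.6) and its RNA was 36.1 and 38.1 CPM in repopulation against 0.22 and 0.58.

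The 8 H3K27ac libraries that did not define the regions were compared next. The PND8 Ki67-negative libraries came from untreated mice of the same age as the PND8 group. The adult libraries came from untreated mice that were younger than the repopulation group. Of PND8-only regions, 64.0% were in both PND8 Ki67-negative libraries and 14.4% in neither. Of repopulation-only regions, 6.80% were in both PND8 Ki67-negative libraries and 8.41% in both adult libraries. After cuprizone, a toxin that removes myelin, 33.3% were in both Ki67-positive libraries and 27.5% in both Ki67-negative libraries. The mice given cuprizone were 90 days old, as were those of the repopulation group. A further 425 repopulation-only regions (23.7%) were in no other library, against 129 (8.72%) of the PND8-only set. Of the 12510 regions with another pattern, 3213 (25.7%) were in no other library. Their shares in both libraries were 31.5% for PND8 Ki67-negative, 11.7% for adult, 27% for cuprizone Ki67-positive and 25.7% for cuprizone Ki67-negative cells. For uncalled regions these shares were 96%, 80.8%, 91.6% and 89.3%. The other libraries included PND8 Ki67-negative cells but no further repopulation cells, so the shares of the repopulation-only and PND8-only sets are not on equal terms. Single-library ATAC-seq peaks, which mark open chromatin, overlapped 83.0% of repopulation-only regions in repopulation and 56.2% at PND8. For PND8-only regions they overlapped 77.6% and 76.5%. The shares were 71.1% and 61.8% for regions with another pattern, and 98.7% and 97.2% for uncalled regions. In each of these classes the repopulation ATAC-seq list overlapped more. The ATAC-seq libraries came from mice with the fluorescent Ki67 reporter, at 75 days for repopulation and 8 days for PND8. The H3K27ac libraries came from wild-type mice, at 90 days for repopulation, so these overlaps also cross a difference in mouse line and age.

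**Figure D3:**
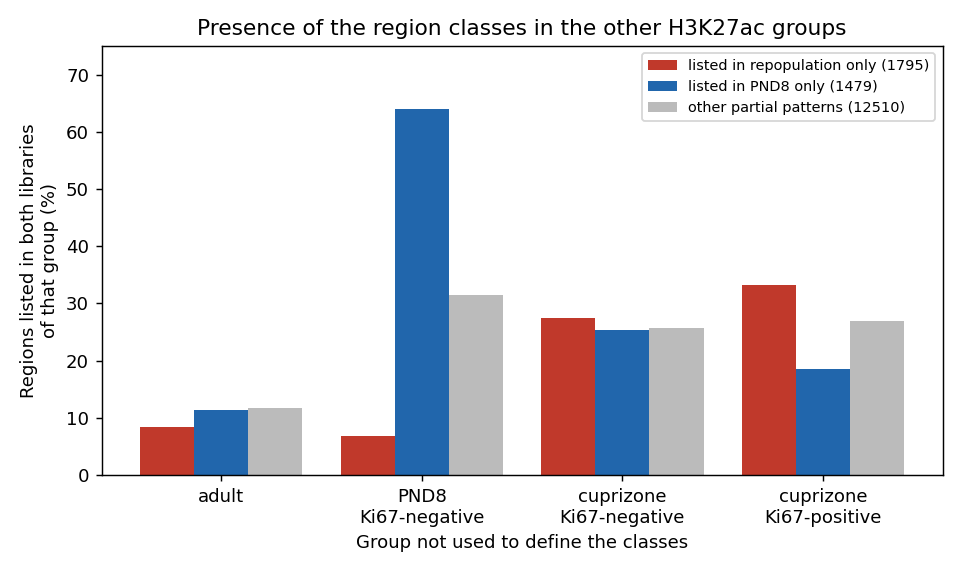
Bars give the percentage of regions of each class (colour) that were listed in both libraries of 4 other H3K27ac groups (x). The PND8-only bar reaches 64.0% in PND8 Ki67-negative cells, while the repopulation-only bar is highest, at 33.3%, in cuprizone Ki67-positive cells. The bars of regions with another pattern are 31.5% and 27% in these groups.

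Where signal could be compared in libraries of other groups, adult microglia minus PND8 Ki67-negative microglia gave a median log2 difference of 0.51 over 1539 higher regions and -0.65 over 1335 lower regions, against -0.13 over 13047 uncalled ones. Of the higher regions 72.2% were above 0, and of the lower regions 19.0%, against 41.5% of uncalled regions. Across 15921 regions the correlation with the repopulation difference was r = 0.426, a description over regions that are not independent. With 1 library of each group with the shared header number the medians were 0.55 and -0.42. Cuprizone Ki67-positive cells minus adult cells gave 0.47 in the higher and -0.16 in the lower regions, against -0.03 in uncalled ones. Cuprizone Ki67-negative cells minus adult cells gave 0.40 in the higher regions and 0.07 in the lower ones, of which 56.4% were above 0. Uncalled regions had a median of 0.0035 there, with 50.3% above 0. The part of age in the repopulation difference was not tested.

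RNA was then set beside the regions. In the RNA libraries, with 7137499 to 8816931 counts, 2040 of 12230 genes (16.7%) were higher in repopulation and 1738 (14.2%) lower (edgeR quasi-likelihood test, adjusted p below 0.05). The split depended on scaling: with library sizes alone 1730 were higher and 2222 lower. Leaving out repopulation replicate 1 gave 1282 higher and 987 lower, repopulation replicate 2 1564 and 1068, PND8 replicate 1 1313 and 1117, and PND8 replicate 2 1359 and 1144. Each region was assigned to the nearest gene start within 100 kb. A region counted to the repopulation side if it was higher or listed only there, and to the PND8 side in the reverse case.

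Genes whose differing regions were all on the repopulation side (1742 tested) had RNA higher in 38.7% and lower in 7.35%. Genes with only PND8-side regions (1504 tested) had RNA higher in 8.24% and lower in 33.8%. Among 7131 genes with no differing region the shares were 13.9% and 12.4%. Regions at the gene start went further, with 71.2% of 333 genes higher and 46.7% of 591 lower. Without RNA of PND8 replicate 1 these shares over regions within 100 kb were 28.05% and 24.15%. The share rose with the number of regions: where repopulation-side regions outnumbered PND8-side ones by 1, 32.7% of genes were higher, by 2 43.2%, by 3 54.7% and by 4 or more 62.6%. With 4 or more on the PND8 side, 71.1% of 45 genes were lower. Many calls had no differing region: 48.6% of the RNA-higher and 50.7% of the RNA-lower genes had regions but none that differed. Among the 8452 genes uncalled in RNA this share was larger, 62.2%. Over genes, log2 differences in H3K27ac at the start and in RNA correlated at r = 0.491 (rho = 0.329, n = 8548), and for the mean of distal regions at r = 0.315 (rho = 0.328, n = 4362), so the rank correlations were alike.

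**Figure D4:**
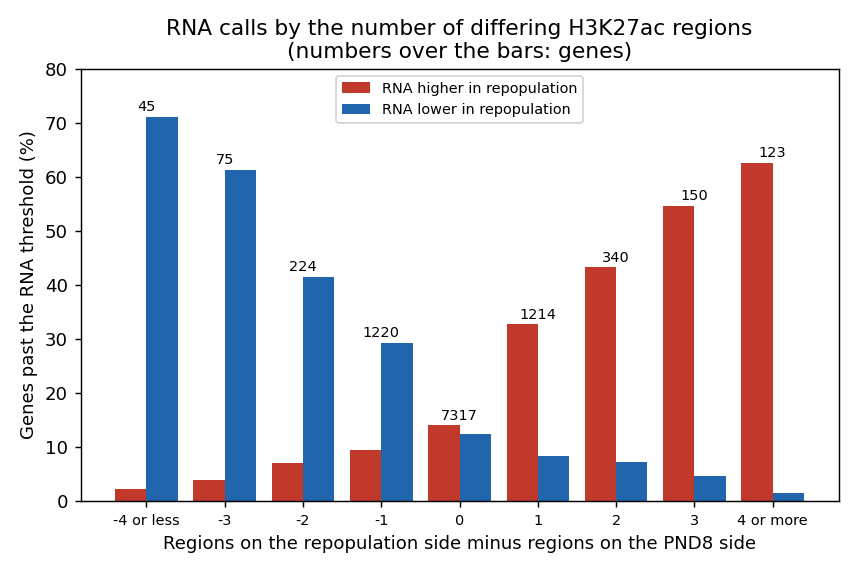
Bars give the percentage of genes with RNA higher (red) or lower (blue) in repopulation (y) by the number of regions on the repopulation side minus those on the PND8 side (x), with the number of genes above. The red bars run from 2.22% to 62.6% from left to right and the blue bars from 71.1% to 1.63%.

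Genes with RNA and regions on the repopulation side included several with no reads at PND8. Gcm2, a transcription factor of the parathyroid gland, had 297 and 187 counts in repopulation and 0 in both PND8 libraries, at least 90.5-fold higher at a floor of 3 counts per library. Its 3 regions were all on the repopulation side. Tespa1, a signalling adaptor of T cells, had 46 and 60 counts against 0, at least 20.6-fold higher. Shisa7, an auxiliary subunit of GABA-A receptors, had 77.2 and 71.4 CPM against 0.66 and 0.35, 147-fold higher, with a repopulation-only region over its start. Tgm2, a transglutaminase, had 195.7 and 207.3 CPM against 2.53 and 1.5, with 6 of 7 regions on the repopulation side. St8sia1, the enzyme that makes ganglioside GD3, had 266.0 and 299.8 against 2.75 and 4.51, with 6 of 9. Tnfsf13b, the B cell survival factor BAFF, had 116.8 and 126.4 against 3.30 and 3.47, and its start region had 452.9 and 542.1 signal against 39.2 and 41.0. Spock1, Ass1 and Fbn2 completed the 10 with Cd36. The region shown for Tgm2 lost its call without any 1 of the 4 libraries (adjusted p = 0.0742 to 0.124), and that of Gcm2 without PND8 replicate 1 (0.096).

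On the PND8 side, Rasl10b, a small GTPase, had 102 and 96 counts at PND8 and 0 in repopulation, at least 28.7-fold lower in repopulation. Cxcr3, a receptor for interferon-induced chemokines, had 38 and 51 counts against 0, at least 12.9-fold lower, and the region at its start had 13.1 and 13 signal against 51.9 and 70.4. Gpnmb, a glycoprotein of phagocytic macrophages, had 72.0 and 77.9 CPM at PND8 and 0.35 and 0.86 in repopulation, 124-fold lower, with a PND8-only region 18464 bp away. Cxcr2, a neutrophil chemokine receptor, gave 107 and 122 counts at PND8 and 2 and 0 in repopulation, with a PND8-only region at its start (57.8 and 96.7). The others of the 10 were Lyve1, Pcdh12, Igf1, Apoc1, Minar1 and Aqp1. Minar1 and Aqp1 had at most 12 counts in any of these libraries, and their RNA calls were lost whichever library was left out (edgeR adjusted p = 0.0504 to 0.108 for Minar1 and 0.065 to 0.196 for Aqp1). That of Pcdh12 was lost without repopulation replicate 1 (0.0539).

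Interferon-response genes were higher in repopulation in RNA, and fewer of their gene starts passed the H3K27ac test. Of 37 listed genes 37 had higher RNA (edgeR), with a median log2 fold change of 2.3 against 0.00253 over all genes tested, and the count was also 37 with DESeq2 and with library sizes alone. Of 33 with a region at the start, 4 were higher, 4 were listed in repopulation only and none were on the PND8 side. Over all 11029 genes with such a region the shares were 2.69% higher and 0.689% repopulation-only. Of 63 regions near these genes 13 (20.6%) were on the repopulation side and 1 (1.59%) on the PND8 side. Over all regions within 100 kb the shares were 11.5% and 8.76%. Earlier results of these data had shown the interferon RNA difference, so it is no independent support. The region at Cxcl10 (chr5:92348131-92349981) had 167.3 and 135.6 in repopulation. At Ifit1, an inhibitor of viral translation, it had 35.3 and 27.4, at Oas1a, an RNA sensor, 26.9 and 14.9, and at Rsad2, the antiviral enzyme viperin, 22.1 and 22.3. Cxcl10 RNA was 12.6 and 20.1 CPM against 7.82 and 7.63, and its call (edgeR adjusted p = 0.0129) was lost without repopulation replicate 2 (0.155) or PND8 replicate 1 (0.0694) or 2 (0.0736). At Zbp1, a sensor of nucleic acids, signal was 117.1 and 163.5 against 27.9 and 52.2 (log2 difference 1.69, SE 0.24, limma adjusted p = 0.00907). At Irf7, the transcription factor that amplifies interferon, it was 134.4 and 151.4 against 67.1 and 80.0 (0.79, SE 0.18, limma adjusted p = 0.0306). Dhx58 and Rtp4 were the other 2, and for Rtp4 the difference of 1.19 was 0.22 per kb of peak. None of the 4 passed without PND8 replicate 1 (adjusted p = 0.0585 to 0.174), and Irf7 and Dhx58 lost their calls whichever library was left out (0.0775 to 0.114 and 0.0837 to 0.174).

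At Stat2, a signal transducer of interferon receptors, RNA rose and the start region did not pass the test. Its RNA was 232.7 and 255.5 CPM against 96.6 and 99.3 (log2 fold change 1.32, edgeR adjusted p = 1.02e-07), while its start region had 111.7 and 109.6 against 131.3 and 170.6 (limma adjusted p = 0.0796). Mx2, an antiviral GTPase, had RNA of 45.1 and 48.2 against 11.8 and 10.8 CPM and an H3K27ac difference of -0.53 (limma adjusted p = 0.0946). The median H3K27ac difference over the 25 interferon genes measured in all 4 libraries was 0.36, against -0.23 over all gene starts. An ISRE match lay in 65.4% of the 26 interferon-list promoters with a RefSeq window (250 bases before to 50 after the start). It lay in 11.6% of 275 promoters on the repopulation side, 6.48% of 494 on the PND8 side and 8.06% of all 15982.

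Of NF-kB-linked cytokine and feedback genes, 5 of 23 tested were higher in RNA and 2 lower, against 16.7% and 14.2% of all genes tested. Of 23 gene starts 5 (21.7%) were higher (Il1a, Il6, Ccl2, Ccl4 and Cxcl16), none were lower and Tnip1, a feedback inhibitor, was listed at PND8 only. Of 119 regions near these genes 31 (26.1%) were on the repopulation side and 7 (5.88%) on the PND8 side, against 11.5% and 8.76% of all regions within 100 kb. The Il6 start (chr5:30011053-30015075) had 438.0 and 668.9 against 107.8 and 134.2 (log2 difference 2.00, SE 0.19, limma adjusted p = 0.00425), and its RNA was low, 10.4 and 8.92 CPM against 2.75 and 2.31 (log2 fold change 1.93, edgeR adjusted p = 0.00025). Cxcl16, a membrane chemokine and scavenger receptor, had 318.5 and 336.3 against 58.3 and 76.0, and RNA of 132.7 and 139.0 CPM against 26.9 and 38.0. Ccl4, a chemokine, went in opposite directions: its start had 298.8 and 435.3 against 168.6 and 185.8, and its RNA 7.29 and 6.91 CPM against 38.3 and 21.4. RNA of the neighbouring Ccl3 also fell. Il1a, Ccl2 and Ccl4 lost their H3K27ac calls without PND8 replicate 1 (adjusted p = 0.204, 0.154 and 0.108), PND8 replicate 2 (0.144, 0.096 and 0.119) or repopulation replicate 2 (0.153, 0.15 and 0.133). Some immediate early genes had their highest RNA in PND8 replicate 1, such as Fos at 170.1 CPM against 14.2 in PND8 replicate 2 and 8.44 and 4.03 in repopulation, while others, such as Atf3 (30.9 and 32.9 CPM at PND8), were close in both PND8 libraries. The part of that library's state in the Ccl3 and Ccl4 values was not tested.

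Of 23 starts of sterol and lipid genes 2 were higher, 3 lower and 1 was listed at PND8 only, against 2.69% higher and 4.85% lower over all gene starts. In RNA 8 of 25 were higher and 9 lower, against 16.7% and 14.2% of all genes tested. The cholesterol exporters Abca1 and Abcg1 and the apolipoprotein gene Apoe, targets of the liver X receptor, had less H3K27ac at their starts in repopulation. Abca1 had 145.8 and 185.3 against 537.1 and 552.4 (log2 difference -1.90, SE 0.20, limma adjusted p = 0.00476), 11 of its 16 regions were on the PND8 side and none on the repopulation side. Its RNA was 375.5 and 256.6 CPM against 927.9 and 1072. Abcg1 had 90.8 and 112.0 against 274.9 and 259.2, with 5 of 7 regions on the PND8 side. The Apoe start (chr7:19698370-19702655) had 89.6 and 35.3 against 378.8 and 476.0 (-3.09, SE 0.51, limma adjusted p = 0.0134) and its RNA was 52.0 and 66.9 CPM against 481.9 and 445.7. The starts that were higher were those of 2 genes of cholesterol synthesis: Fdps, an enzyme of the mevalonate pathway, had 366.9 and 527.7 against 204.8 and 273.9, and Srebf2, the regulator of cholesterol synthesis, 384.8 and 519.8 against 200.9 and 248.6. Synthesis genes differed among themselves in RNA: Fdps was higher (log2 fold change 0.91, edgeR adjusted p = 0.00783), Srebf2 did not pass (0.0578), and Fdft1, Scd2 and Fasn were lower (-0.58, -0.81 and -0.50). The Apoe call was lost without PND8 replicate 1 (adjusted p = 0.112) or 2 (0.0804), that of Abcg1 without replicate 1 (0.0555), and those of Fdps and Srebf2 without either (0.175 and 0.115 for Fdps, 0.114 and 0.0947 for Srebf2) and without repopulation replicate 2 (0.201 and 0.111).

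Genes known from neonatal and disease-associated microglia were called in both directions. Of 25 gene starts 6 were higher (Itgax, Axl, Cd9, Ank, Ch25h and Vim), 3 were lower (Apoe, Cd63 and Ctsl), Il1rn was in repopulation only and Igf1 at PND8 only. Over all gene starts 2.69% were higher and 4.85% lower. In RNA 7 of 28 were higher and 12 lower, against 16.7% and 14.2% of all genes tested. Itgax, the integrin CD11c, had 336.4 and 472.0 signal against 40.7 and 67.8 (log2 difference 2.75, SE 0.21, limma adjusted p = 0.00333). Its RNA rose by less, 131.5 and 129.8 CPM against 78.5 and 87.0 (log2 fold change 0.66), and that call was lost without PND8 replicate 1 (adjusted p = 0.061). Axl, a receptor for apoptotic cells, had 291.6 and 231.3 against 19.6 and 53.2, with RNA of 391.6 and 469.7 CPM against 99.8 and 141.7. Gas6, the Axl ligand, went the opposite way, with 52.6 and 109.6 signal against 329.3 and 404.6 and RNA of 145.7 and 162.4 CPM against 583.3 and 589.2. Spp1 RNA, osteopontin, was 67.1 and 96.2 CPM against 206.9 and 219.9. H3K27ac calls of Axl, Gas6, Vim, Cd9, Cd63 and Ctsl were lost without PND8 replicate 1 (adjusted p = 0.0559, 0.0632, 0.0897, 0.0585, 0.0516 and 0.111), that of Cd9 also without replicate 2 (0.0513), and that of Ctsl also without PND8 replicate 2 (0.0662) or repopulation replicate 2 (0.0658).

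**Figure D5:**
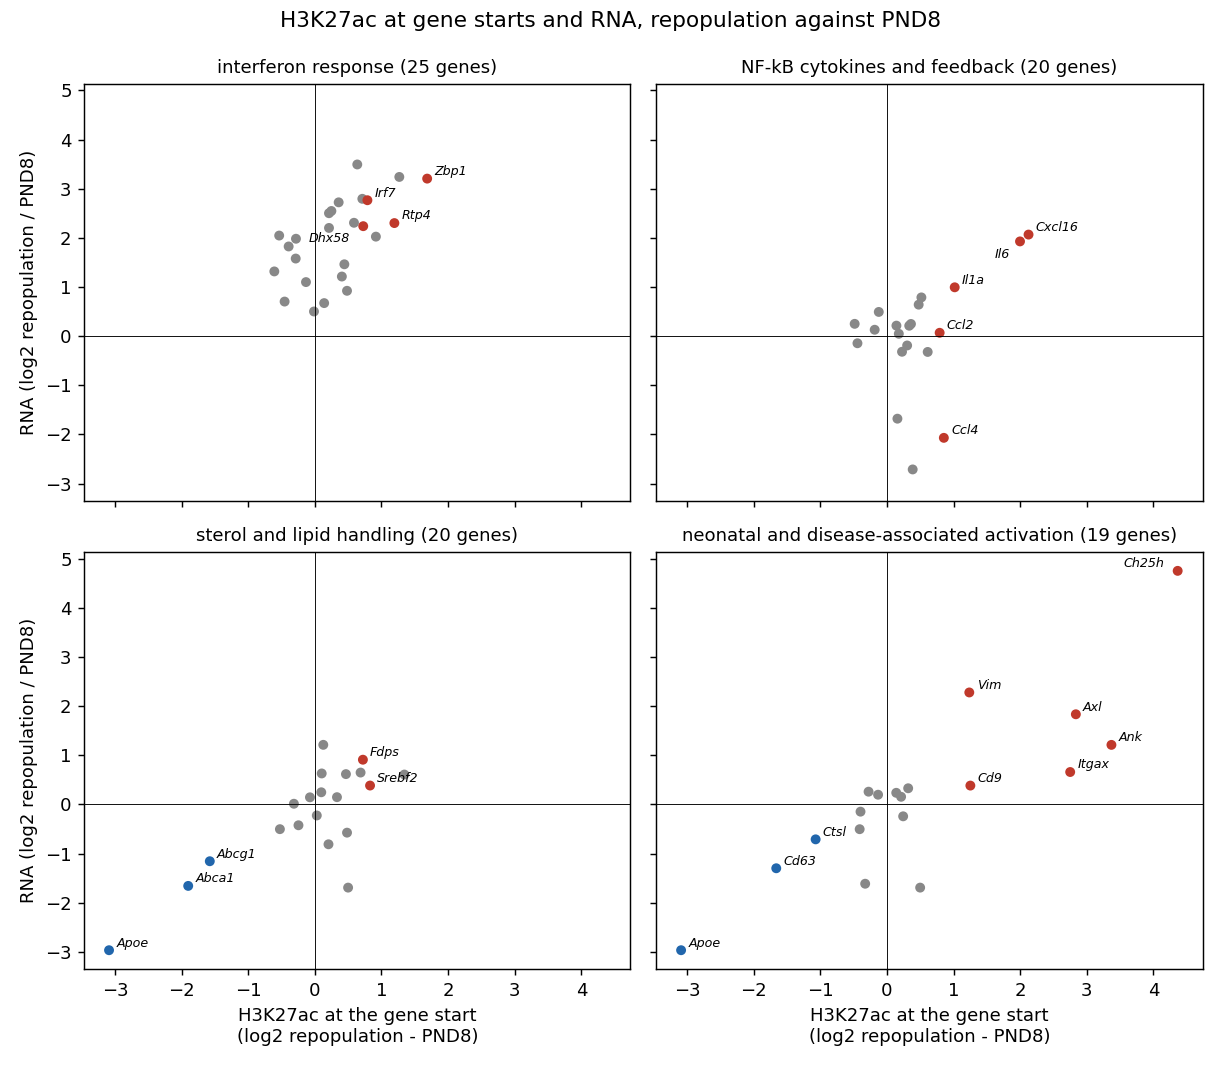
For 4 gene lists, each point is a gene whose start region was listed in all 4 libraries, with the log2 difference in H3K27ac (x) and the log2 RNA fold change (y), repopulation against PND8. Red and blue mark H3K27ac calls higher and lower in repopulation; all 25 interferon points lie above 0 on the RNA axis, while Ccl4 has higher H3K27ac and lower RNA, and Ch25h and Apoe lie at opposite corners.

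Of 25 starts of homeostatic microglial genes 1 (4%) was higher, Selplg, and 2 (8%) were lower, Olfml3 and Fcrls, against 2.69% and 4.85% of all gene starts. None of the 25 was listed in 1 group only. In RNA 9 of 25 were higher and 3 lower (Fcrls, Jun and Egr1), against 16.7% and 14.2% of all genes tested. Jun and Egr1, also immediate early genes, had 265.2 and 354.7 CPM in PND8 replicate 1 against 152 and 32.0 in replicate 2. Olfml3, lower in H3K27ac, had higher RNA (log2 fold change 0.57, edgeR adjusted p = 0.00175). P2ry12, the ADP receptor, had 1788 and 2267 against 1969 and 1902, and Csf1r 1521 and 1671 against 1435 and 1725, with overlapping groups. Sall1, the transcription factor of microglial identity, had 979.3 and 963.9 against 1676 and 1501 (log2 difference -0.88, limma adjusted p = 0.0565) and RNA of 970.7 and 932.8 CPM against 1012 and 1054. Selplg, the P-selectin ligand, had 1097 and 1349 against 420.9 and 504.8, and its call was lost without PND8 replicate 1 (adjusted p = 0.0605) or 2 (0.0505). Olfml3 lost its call without any 1 library (adjusted p = 0.097 to 0.171), and Fcrls without repopulation replicate 2 (0.0781) or PND8 replicate 1 (0.106) or 2 (0.0725), and both also on the values as deposited (0.351 and 0.162). Among 29 starts of lineage transcription factors, Tfec, a relative of MITF, was the only one called by limma: 23.9 and 23.7 signal against 150.9 and 168.6 (-2.92, SE 0.20, limma adjusted p = 0.00313), with RNA of 2.89 and 1.29 CPM against 17.5 and 12.3. Bhlhe40 was in repopulation only and Irf4 at PND8 only. With the replicate number as a term 2 were lower.

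Starts of antigen presentation, complement and immediate early genes were called at shares to be read against 2.69% higher and 4.85% lower over all gene starts. Of 15 MHC starts H2-Ab1, a class II chain, was higher (124.9 and 144.5 against 28.9 and 64.3), and the call was lost without PND8 replicate 1 (adjusted p = 0.0784). In RNA 12 of 18 MHC genes were higher and 1 lower. Of 22 complement and phagocytosis starts Axl and Fcgr2b were higher and Gas6 lower, with RNA higher in 9 of 25 and lower in 6. The Fcgr2b call was lost without repopulation replicate 2 (0.0681) or PND8 replicate 1 (0.145). Of 24 immediate early and heat shock starts Egr3 was higher. A region 19086 bp from the Egr3 start was higher too, with a log2 difference of 1.76. That distal call was lost without PND8 replicate 1, where the log2 difference was 1.67. In RNA 3 of 24 were higher and 9 lower, against 16.7% and 14.2% of all genes tested. The Egr1 call was lost without PND8 replicate 1 (edgeR adjusted p = 0.526) or repopulation replicate 1 (0.106) or 2 (0.0819), and that of Fos without PND8 replicate 1 (0.326) or repopulation replicate 2 (0.0576).

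Both groups were sorted as Ki67-positive, and S phase and G2/M genes were set beside all genes tested in RNA, of which 16.7% were higher and 14.2% lower. Of 37 S phase genes 5 were higher and 0 lower, and of 42 G2/M genes 0 were higher and 3 lower. With library sizes alone the S phase counts were 3 and 3 and the G2/M counts 0 and 5. Mki67 RNA was 930.1 and 1087 CPM in repopulation and 919.6 and 1107 at PND8. H3K27ac at G2/M starts was lower in 6 of 42 (Ccnb1, Cdk1, Nek2, Cdca8, Kif20a and Aspm) (14.3%) and higher in 0, against 4.85% lower and 2.69% higher over all gene starts, with a median of -0.44 against -0.23. On the values as deposited 2 were lower, with a median of -0.27, and with the replicate number as a term 8. Aspm, a spindle protein, had 75.9 and 92.4 against 173.0 and 210.6, and Cdk1, the mitotic kinase, 320.3 and 342.8 against 550.3 and 541.3. None of the 6 passed without PND8 replicate 1 (adjusted p = 0.0566 to 0.158). Among S phase starts Mcm6, Rfc2 and Tk1 were higher and Mcm2 was lower. Their log2 differences per kb of peak were -0.0123, -0.128, 0.0115 and -0.455, in that order. As deposited, Mcm6 and Mcm2 did not pass (limma adjusted p = 0.0691 and 0.159). These S phase calls were all lost without PND8 replicate 1 (differences of 0.76, 0.98, 0.93 and -0.83) or replicate 2 (0.76, 1.18, 0.93 and -0.99).

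Markers of other cells differed between the groups for some cell types and not for others. Border macrophage genes had lower RNA in repopulation in 11 of 12 tested genes, with Siglec1 higher, against 14.2% lower over all genes tested. Of their 28 regions 39.3% were on the PND8 side and 7.14% on the repopulation side. The shares over all regions within 100 kb were 8.76% and 11.5%. Their summed RNA over 14 genes was 121.8 and 122.2 CPM in repopulation and 907.7 and 903.0 at PND8, of which Mrc1, the mannose receptor, gave 833.6 and 813.5 at PND8. At the Mrc1 start the signal was 351.8 and 447.1 at PND8 and 45.1 in repopulation replicate 2, with no listing in repopulation replicate 1. A region 3379 bp from the Mrc1 start went the other way and was listed in repopulation only (13.7 and 81.8). Lyve1 had 0 counts in both repopulation libraries and 34 and 50 at PND8. Of 7 gene starts with a region 4 were listed at PND8 only (F13a1, Cbr2, Folr2 and Mgl2). In bulk samples, fewer cells of a type and less RNA per cell cannot be told apart. Erythroid genes were lower in 5 of 5, summing to 1.16 and 1.3 CPM against 61.7 and 23.5. Astrocyte genes summed to 410.2 and 421.6 CPM against 62.2 and 376.5, mostly from Slc1a3 (398.4 and 410.8 against 38.7 and 361.8), and endothelial genes to 47.8 to 54.1 in all 4. Lymphocyte genes summed to 23.02 and 18.14 CPM in repopulation and 48.02 and 49.01 at PND8, mostly Cd79b. Oligodendrocyte genes summed to 160.4 to 248.9, monocyte or neutrophil genes to 14.45 to 23.25 and neuron genes to 3.01 to 8.21. The homeostatic list summed to 14000 to 16580 CPM. What part these cells had in the PND8-side regions was not tested.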

How the data were processed

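H3K27ac peaks were called by the authors with HOMER on each library separately against its own input, per the file headers: variable-width regions with a peak size of 500 bp and a minimum distance of 1000 bp, at least 4 times over input and at a false discovery rate of 0.001. The submitters' processing notes name Bowtie2 2.3.4.1, STAR 2.7.0f, HOMER 4.11, DESeq2 and the builds mm10 and GRCm38. Deposited signal values are tags per 10000000, per the file headers. The deposited ratio over input was read from column position, since the header names of the last columns are shifted, and served only for the stricter peak threshold. Deposited RNA counts come from HOMER over exons with 1 transcript per gene and at most 3 tags per position, per the file headers, and all 10 sample columns were matched.

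Signal was summed per union region, log2-transformed without a pseudocount, centred and tested with limma 3.58.1. Counts of 12230 genes in 10 libraries were tested with edgeR 4.0.16 (TMM, filterByExpr, 1 term per group) in R 4.3.3, with DESeq2 1.42.0 as an alternative. Both were tested on simulated data. Errors are standard errors (SE), and the threshold was an adjusted p of 0.05. Promoter regions lie within 1 kb of a gene start of the count table. RefSeq windows matched 15982 of 20999 genes.

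Named regions are the 10 strongest listed in 1 group only and the 10 largest differences in each direction, within 100 kb of a gene start and 1 per gene. Named genes are the 10 largest RNA changes in each direction with regions on the same side only, a panel, and up to 4 per list. Other members named were chosen after their values were seen. The members and lists were chosen with earlier results of these data known. The replicate numbers did not pair libraries. The other alternatives were those of scaling, pseudocounts, peak thresholds, overlap, distance and single libraries.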

Additional observations from a re-analysis of the deposited data

How the results depend on the processing

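Directions of the named results that were called held under nearly all alternatives tried. Of the alternative values for 112 named regions, 1088 kept their status, called or uncalled, and 246 lost the call. A further 4 gained it and 3 reversed, all 3 per kb of peak (Mcm6 -0.0123, Rfc2 -0.128 and Klrb1c 0.0241). Sign changes of regions uncalled in both fits were counted as the same status. Values within the shared header number carried no test and counted as the same unless a called region changed sign. Of 145 named genes in RNA, 1195 alternative values kept their status, called or uncalled, 59 lost the call and 47 gained it. Leaving out 1 library gave 696 to 2641 higher and 171 to 2529 lower regions, 2092 to 3837 repopulation-only and 1963 to 3842 PND8-only regions, and 1282 to 1564 higher and 987 to 1144 lower genes in RNA. Lower regions numbered 922 as deposited, 2727 with missing values set to 0 at a pseudocount of 20, and 1083 at a log2 difference of at least 1. At 8 times over input, where repopulation replicate 2 kept 8850 of 27008 peaks, 278 regions were in repopulation only and 2442 at PND8 only. Genes on the repopulation side had higher RNA in 71.2% at gene starts, 36.3% for distal regions, 43.9% within 20 kb and 36.3% with DESeq2. PND8-side genes had lower RNA in 46.7% at gene starts. Without RNA of PND8 replicate 1, an alternative chosen after seeing the data, the shares were 28.05% and 24.15%. The replicate numbers are only numbers (deviations of same-numbered libraries correlated at -0.01 in H3K27ac and 0.05 in RNA). With the replicate block, 2440 regions were higher and 1670 lower, and 2290 and 2072 genes in RNA. Counts of regions listed in 1 group only could not fall when a library was left out, since that removes a condition. The cause of the other shifts was not tested. With 2 libraries a group, differences below about the replicate spread cannot be called, and weak regions depend on the caller's limit.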
